A study of Mus musculus with 30 samples.

Results

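The genes described here are 39 genes classed as enzymes that add methyl groups to lysines of histones (22 methylases) or remove them (17 demethylases). They were classed gene by gene, and enzyme activity was not measured. They include Jmjd6, classed with the demethylases though its residue was given only as other. They were chosen by symbol from a fixed list, and each had 1 row among the 24883 rows of the expression table. All 39 had a mean of at least 1 FPKM (fragment counts scaled to transcript length and library size) over the 30 libraries and entered the test of 13184 rows, with Suv39h2 closest to that minimum at a mean of 1.02 FPKM. RNA was sequenced from the dorsal hippocampus of 30 wild-type male C57BL/6J mice, young adults, with 6 mice in each of 5 conditions and 1 library per mouse. VEH-HC mice were handled and stayed in the home cage, VEH-T10 mice had 10 min of training in the object location memory task (a threshold period), and VEH-T3 mice had 3 min (a subthreshold period). All 3 of these conditions received the in vivo-jetPEI transfection reagent without DNA. The other 2 received plasmid DNA for mouse CREST with an HA tag, driven by a miniCaMK2 promoter. In Y397F-T10 (10 min of training) the tyrosine in the name was replaced by phenylalanine, labelled phospho-null. In Y397D-T3 (3 min) that tyrosine was replaced by aspartic acid, labelled phospho-mimetic. The study could not detect phosphorylation of this tyrosine and calls both only point mutants. The infusion was placed 3 days before training by the sample labels, and tissue was taken 1 h after training. The plasmid reached a fraction of the cells that is not given in the sources used here, no condition carried wild-type CREST plasmid, and no home-cage condition carried a mutant, so mutant and trained state are compared only with the vehicle conditions above.

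Methyl marks on histone lysines differ in what they accompany. Trimethylation of H3K4 is found at active promoters, monomethylation of H3K4 at enhancers, methylation of H3K36 and H3K79 along transcribed genes, and methylation of H3K9 and H3K27 at silent chromatin. Enzymes with a SET domain write most of these marks, Dot1l writes H3K79 with a different fold, and the marks are removed by the flavin-dependent LSD enzymes (Kdm1a and Kdm1b) and by the Jumonji enzymes, which use iron, oxygen and 2-oxoglutarate. In the hippocampus several of them, among them the G9a and GLP pair (Ehmt2 and Ehmt1) and Kmt2a, have an established part in memory. CREST, the product of Ss18l1, is a subunit of the neuronal chromatin remodelling complex and binds the acetyltransferase CBP.

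Relative depth, estimated from the spacing of values among genes of low level, ran from 0.811 to 1.24 of the median library, and absolute depth is unknown. All 7 markers of CA1 pyramidal neurons had a median of at least 1 FPKM, and their summed level was 290.9 to 318.7 FPKM in VEH-HC, 304.2 to 359.5 in VEH-T3, 309.7 to 399.7 in Y397D-T3 and 271.6 to 372.4 in the conditions with 10 min of training. Of these markers Spink8 rose in VEH-T3 (log2 difference 0.49, adjusted p = 0.0465), and Neurod6 and Pou3f1 rose in Y397D-T3 (0.33 and 0.33, adjusted p = 0.0275 and 0.0198), the comparisons with most enzyme calls. All 7 markers of choroid plexus were also present, with a summed level of 920.4 to 5627 FPKM for VEH-HC, 10.45 to 4490 for VEH-T10, 28.9 to 10450 for Y397F-T10, 29.98 to 12840 for VEH-T3 and 14.4 to 2851 for Y397D-T3. The thalamic marker Slc17a6, a vesicular glutamate transporter, fell in VEH-T10, Y397F-T10 and Y397D-T3 relative to VEH-HC, by 1.075, 1.12 and 0.95 on the log2 scale (limma, adjusted p = 0.0310, 0.0313 and 0.0199). Of the other thalamic and the endothelial markers, Tcf7l2 and Slco1a4 fell in Y397D-T3 (-0.37 and -0.42, adjusted p = 0.0211 and 0.0158) and Flt1 rose in VEH-T3 (0.24, adjusted p = 0.0492). The part of these markers in the enzyme results was not tested, beyond the split by choroid plexus sum given for Kdm7a and Dot1l. VEH-HC mouse 4 had the steepest loss of long transcripts, with a log2 level that changed by -0.13 for each doubling of transcript length against -0.04 to 0.02 in the other 5 VEH-HC mice, and for 23 of the 39 enzymes it was the lowest of its condition. The called differences are given with and without that mouse.

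The enzymes spanned a wide range of levels, and most of that range lay between genes rather than between conditions. Ehmt2 (G9a, which writes H3K9 dimethylation) had the highest mean, 56.9 FPKM over the 30 libraries. It was followed by Smyd2 at 30.6, Setd7 (an H3K4 monomethylase) at 27.8, Kdm1a (LSD1) at 21.8, Kdm4b at 18.9 and Ezh1 at 17.1. At the other end stood Suv39h2, Setdb2, Kdm8, Ezh2 and Kdm1b, with means of 1.02, 1.49, 1.61, 1.83 and 2.01 FPKM. FPKM divides by transcript length, which puts genes on a common scale, though a trend on length that differed between libraries remained. Relative to the mean of each gene, log2 level changed by -0.13 to 0.10 per doubling of length across libraries. How far length affects the order of genes was not tested. The order within related pairs held in every library. Ezh1 exceeded Ezh2, the catalytic subunits of PRC2 that write H3K27 methylation, by 6.47- to 17.4-fold (median 8.998) in all 30 libraries. Ehmt2 exceeded Ehmt1 by 7.29- to 9.98-fold, Kdm1a exceeded Kdm1b by 8.40- to 13.5-fold, and Suv39h1 exceeded Suv39h2 by 4.87- to 10.4-fold, each in 30 of 30 libraries.

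**Figure D1:**
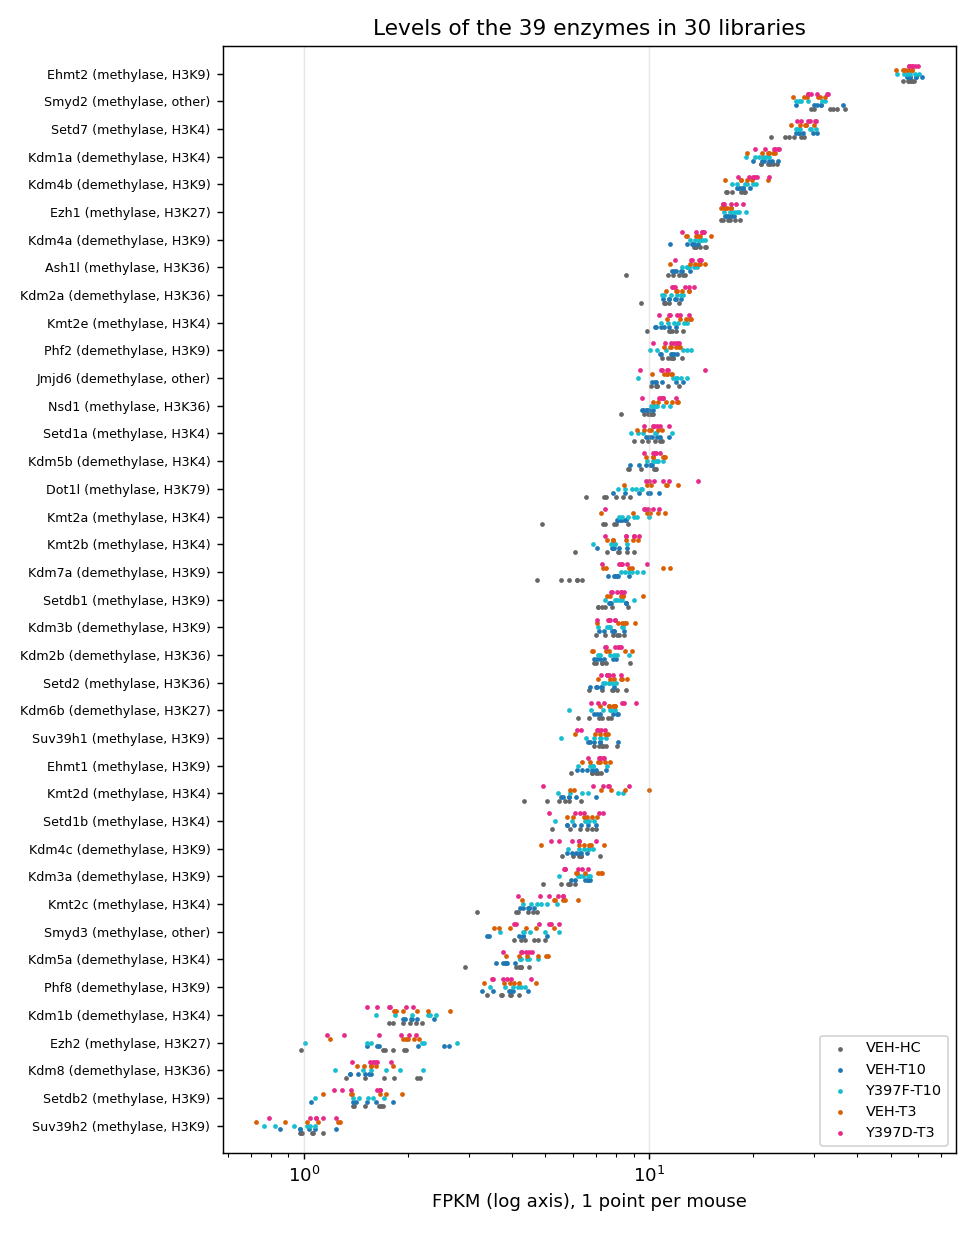
FPKM on a log axis of the 39 enzymes in the 30 libraries, 1 point per mouse, coloured by condition and ordered by the mean over all libraries. Ehmt2 stands highest at a mean of 56.9 FPKM, 5 genes lie at or near 1 to 2 FPKM, and the VEH-HC points of Kdm7a (grey, 4.72 to 6.38 FPKM) lie apart from all points of the trained conditions.

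Each trained condition was compared with VEH-HC to ask which enzymes differ 1 h after training, and the 4 comparisons share the same 6 VEH-HC mice. By the methods the task includes habituation to the chamber before training, while home-cage mice had handling only. Training and that earlier exposure therefore cannot be told apart in these comparisons. Of the 39 enzymes, 1 rose in VEH-T10, 8 rose in VEH-T3, 1 rose in Y397F-T10 and 6 rose in Y397D-T3 (limma, adjusted p under 0.05), and none fell in these 4 comparisons. Among all genes tested, 0.319%, 2.23%, 0.47% and 3.91% rose in the same comparisons. Over all genes 42 rose and 66 fell, 294 and 387, 62 and 87, and 515 and 417, and with libraries centred on their median 33 and 13, 239 and 102, 30 and 12, and 692 and 248. The 16 differences belong to 9 genes: Kdm7a in all 4, Dot1l, Kmt2a, Kmt2c and Ash1l in VEH-T3 and Y397D-T3, Kdm3a, Kmt2d and Nsd1 in VEH-T3, and Setd7 in Y397D-T3. The other 30 enzymes were called in no comparison. At an unadjusted p under 0.05, 6, 15, 11 and 10 enzymes differed, in the same order, against 14.9%, 21.6%, 16.9% and 24.9% of all genes. The median log2 difference of the 39 was 0.01, 0.06, 0.05 and 0.05 in the 4 comparisons, beside medians of -0.03, -0.04, -0.04 and -0.03 over all genes tested. By direction of activity, 2 of 17 demethylases and 6 of 22 methylases rose in VEH-T3, and 1 of 17 and 5 of 22 in Y397D-T3. Because the tissue is bulk, fewer cells of a type and less RNA per cell cannot be told apart.

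**Figure D2:**
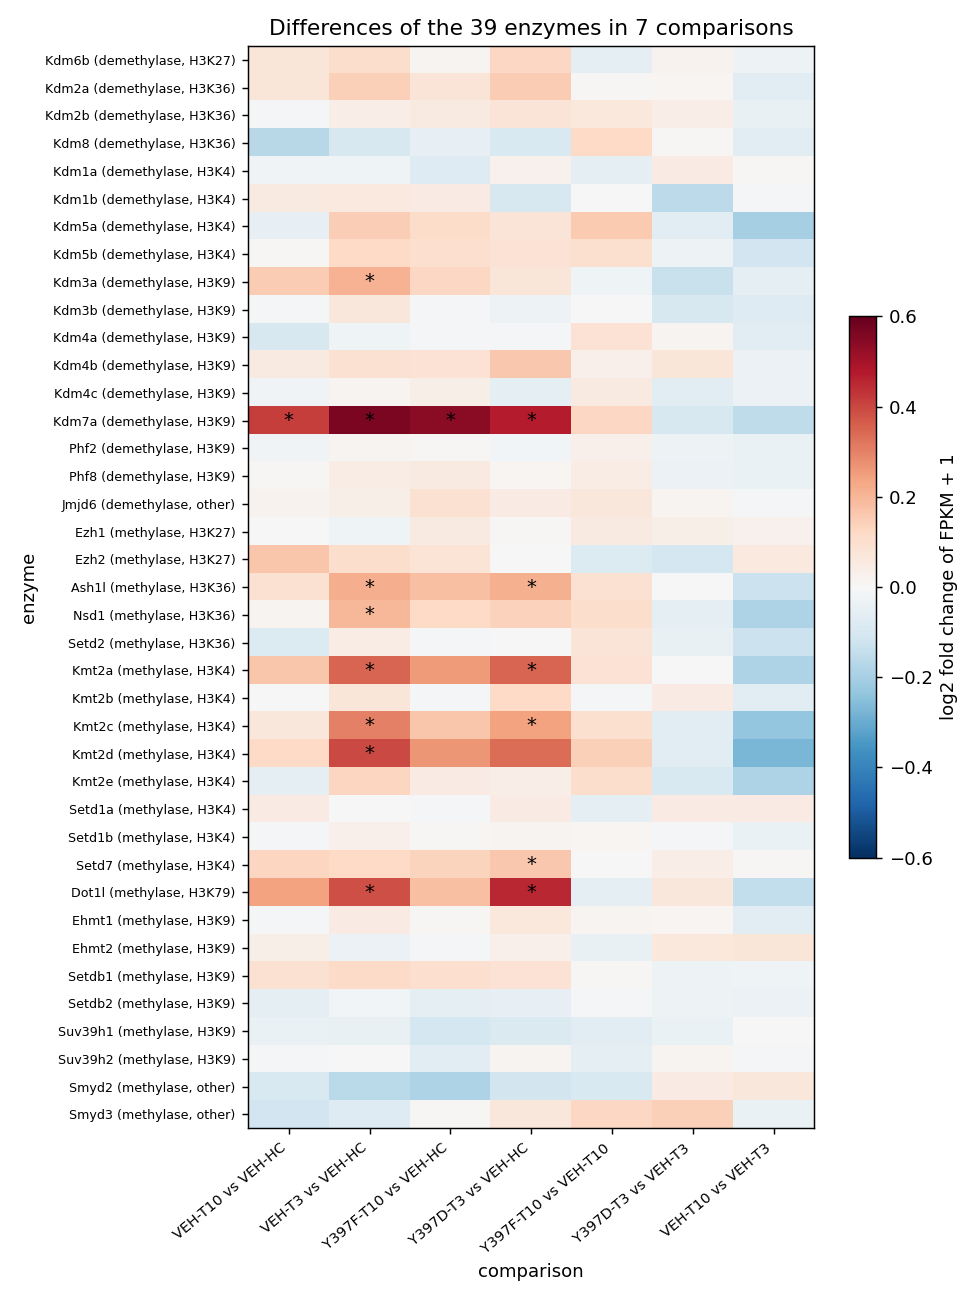
Log2 fold change of FPKM + 1 (colour, red higher and blue lower in the condition named first) for the 39 enzymes (rows, with kind and main residue) in the 7 comparisons (columns). Stars mark adjusted p under 0.05: Kdm7a carries 4 stars, VEH-T3 holds 8 and Y397D-T3 holds 6, and the 3 rightmost columns hold none.

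Kdm7a, a Jumonji demethylase of H3K9 and H3K27 dimethylation whose PHD finger binds trimethylated H3K4, was higher in every trained mouse than in any home-cage mouse. The gene lies at chr6:39136623-39206789 on the minus strand of mm10. Its lowest, median and highest values were 4.72, 6.00 and 6.38 FPKM for VEH-HC, 7.58, 7.99 and 8.72 for VEH-T10, 8.27, 8.83 and 9.58 for Y397F-T10, 7.36, 8.81 and 11.5 for VEH-T3, and 7.31, 8.29 and 9.83 for Y397D-T3. Thus all 24 trained mice exceeded the highest of the 6 VEH-HC mice, and the trained conditions overlapped one another. The mean was 5.81 ± 0.605 FPKM (SD, n = 6) in VEH-HC and rose to 8.04 ± 0.378 after 10 min (VEH-T10), a ratio of 1.39 and a log2 difference of 0.41 ± 0.08 (SE, limma, adjusted p = 0.0147). In VEH-T3 the ratio was 1.58 (log2 difference 0.57 ± 0.08, adjusted p = 0.000865), in Y397F-T10 it was 1.53 (0.54 ± 0.08, adjusted p = 0.00147), and in Y397D-T3 it was 1.45 (0.47 ± 0.08, adjusted p = 0.00134). Mice of the 2 conditions did not overlap, with the trained condition higher, for 1, 3, 1 and 2 of the 39 enzymes in VEH-T10, VEH-T3, Y397F-T10 and Y397D-T3, against 0.789%, 0.675%, 0.554% and 2.5% of all genes.

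In each of the 4 comparisons the Kdm7a call held whichever of the 12 mice was left out (adjusted p at most 0.0395). The 4 comparisons share the same 6 VEH-HC mice, so these fits are not separate checks. Without VEH-HC mouse 4 the log2 differences were 0.37, 0.52, 0.49 and 0.42 in the order above. With the trend on transcript length and GC content removed they were 0.40, 0.44, 0.45 and 0.42, at adjusted p of 0.00134, 0.000753, 0.000345 and 0.000225. In a fit of the 12 VEH-T3 and VEH-HC libraries alone the adjusted p was 0.0817, and that fit called 0 of all genes tested. Among trained mice, 9 had a choroid plexus sum at or above the lowest VEH-HC value, and their Kdm7a level was 7.36 to 11.5 FPKM (median 8.72), while the 15 below it had 7.31 to 9.83 FPKM (median 8.27).

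Dot1l, the only known H3K79 methylase and a companion of elongating RNA polymerase II, rose in VEH-T3 and Y397D-T3. The gene lies at chr10:80755206-80795461 on the plus strand of mm10. Its lowest, median and highest values were 6.56, 7.75 and 8.81 FPKM for VEH-HC, 7.84, 9.64 and 10.6 for VEH-T10, 8.11, 9.01 and 9.52 for Y397F-T10, 8.46, 10.6 and 12.1 for VEH-T3, and 9.76, 10.6 and 13.8 for Y397D-T3. All 6 Y397D-T3 mice lay above the highest VEH-HC mouse, as did 5 of 6 in VEH-T3, 4 of 6 in VEH-T10 and 4 of 6 in Y397F-T10. Dot1l rose by a ratio of 1.35 in VEH-T3 (log2 difference 0.39 ± 0.08, SE, adjusted p = 0.0118) and 1.42 in Y397D-T3 (0.45 ± 0.08, adjusted p = 0.00183). In VEH-T10 the log2 difference was 0.24 (95% interval 0.07 to 0.41, adjusted p = 0.139) and in Y397F-T10 it was 0.18 (0.02 to 0.35, adjusted p = 0.248), neither past the threshold. A test with library weights called Dot1l higher in VEH-T10 (0.23, adjusted p = 0.0208). That test called 380 genes higher in this comparison, beside 42 without weights. Removal of the length and GC trend left 0.40 in VEH-T3 and 0.45 in Y397D-T3 (adjusted p = 0.00625 and 0.000504), and both calls held whichever of the 12 mice was left out. In the fit of 12 libraries the VEH-T3 call was lost (adjusted p = 0.0830). Of the 9 trained mice with a choroid plexus sum in the VEH-HC range or above it, 7 exceeded the highest VEH-HC mouse for Dot1l, as did 12 of the other 15.

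**Figure D3:**
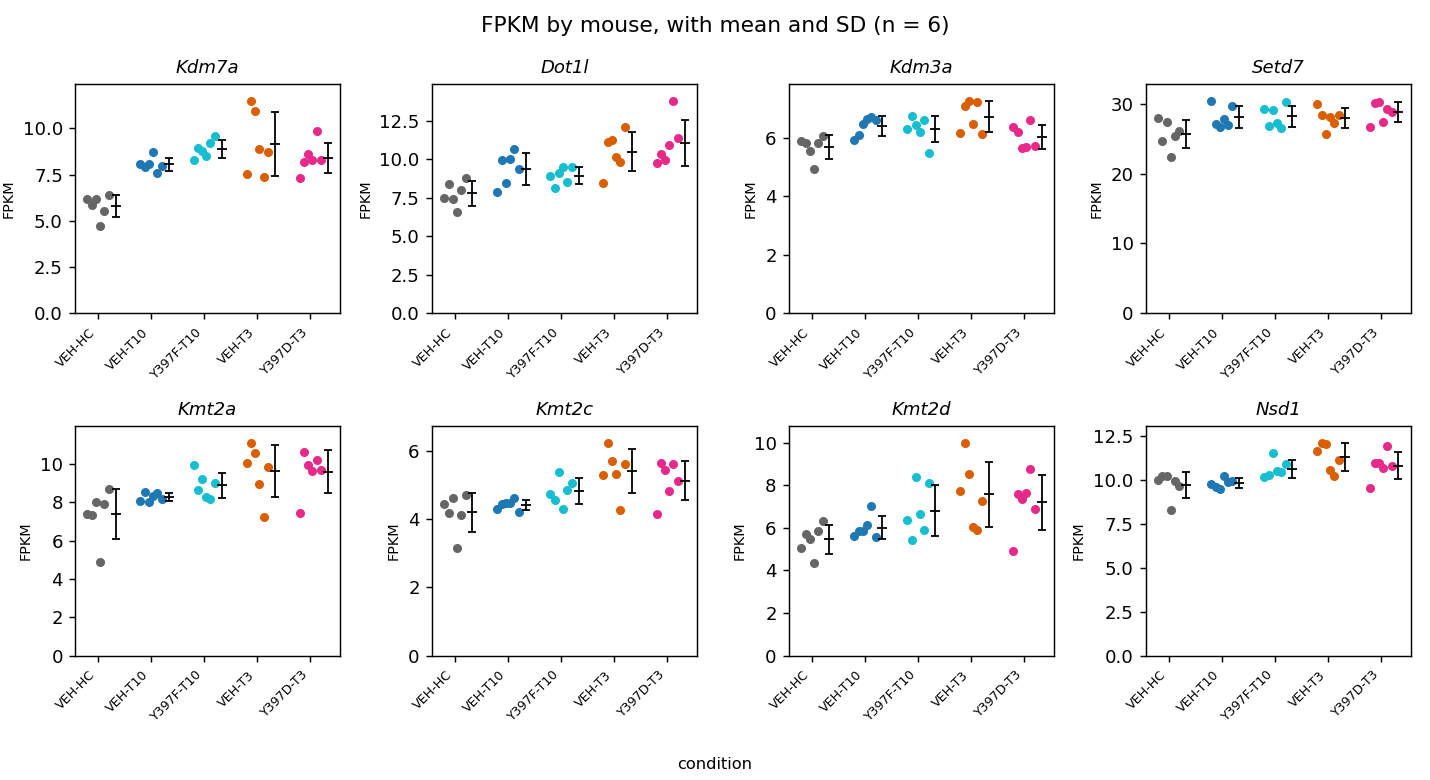
FPKM from 0 by mouse for 8 of the 9 called enzymes in the 5 conditions, with the mean and SD (n = 6) to the right of each set of points. The 24 trained mice lie above all 6 VEH-HC mice for Kdm7a, and 1 VEH-HC mouse lies low for Kmt2a (4.89 FPKM), Kmt2c (3.16) and Nsd1 (8.26).

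Since CREST binds CBP, a partner of the cyclic AMP response factor CREB, the promoters were searched for the CREB core site TGACG, the full cyclic AMP response element TGACGTCA (which holds the core site on both strands), the E-box CACGTG and the GC box GGGCGG, on both strands. RefSeq promoters of GRCm38.p6, from 250 bases before to 50 after the start, were given for 28 of the 39 enzymes, 36 promoters in all. The core site was in 10 of the 36 (27.8%, beside 20.8% of all 32851 promoters), the full element in 2 (5.56%, beside 1.79%), the E-box in 3 (8.33%, beside 7.15%) and the GC box in 25 (69.4%, beside 35.7%). The promoters of Kdm7a and Dot1l, the enzymes whose calls held whichever mouse was left out, are shown whole with GC boxes in capitals. Neither holds the core site.
Kdm7a promoter, chr6:39206724-39207023, minus strand: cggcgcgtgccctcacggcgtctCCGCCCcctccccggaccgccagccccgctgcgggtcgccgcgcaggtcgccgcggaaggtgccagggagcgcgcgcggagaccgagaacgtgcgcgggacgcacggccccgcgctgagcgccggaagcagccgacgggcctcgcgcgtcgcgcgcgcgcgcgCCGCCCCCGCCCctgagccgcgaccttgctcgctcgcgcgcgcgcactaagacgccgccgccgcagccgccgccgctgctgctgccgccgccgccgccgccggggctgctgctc
Dot1l promoter, chr10:80754953-80755252, plus strand: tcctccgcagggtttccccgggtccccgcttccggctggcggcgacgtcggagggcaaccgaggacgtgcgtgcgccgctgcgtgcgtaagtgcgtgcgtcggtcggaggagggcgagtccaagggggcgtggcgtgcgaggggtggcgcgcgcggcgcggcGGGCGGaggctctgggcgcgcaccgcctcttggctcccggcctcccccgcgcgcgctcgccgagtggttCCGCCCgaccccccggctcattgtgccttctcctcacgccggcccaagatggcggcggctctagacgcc

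The full element was found in Phf8, a demethylase of H3K9 and H4K20, and in Suv39h2, a trimethylase of H3K9. A window of 80 bases of each is shown with the element in capitals, because these are the enzymes whose promoter holds it and neither was called in a comparison. The log2 difference of Phf8 from VEH-HC ran from 0.01 to 0.05 over the 4 trained conditions and that of Suv39h2 from -0.07 to 0.02.
Phf8 promoter window, chrX:151520582-151520661, plus strand: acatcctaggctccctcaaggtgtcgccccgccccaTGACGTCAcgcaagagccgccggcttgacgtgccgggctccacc
Suv39h2 promoter window, chr2:3475028-3475107, minus strand: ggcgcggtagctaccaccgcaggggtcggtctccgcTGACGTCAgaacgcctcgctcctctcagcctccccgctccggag

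Among the 8 H3K9 demethylases, Kdm3a, which removes mono- and dimethylation, was the other one called. Its lowest, median and highest values were 4.93, 5.83 and 6.08 FPKM for VEH-HC, 5.92, 6.56 and 6.73 for VEH-T10, 5.48, 6.37 and 6.74 for Y397F-T10, 6.15, 6.78 and 7.28 for VEH-T3, and 5.64, 5.95 and 6.62 for Y397D-T3. The VEH-T3 mice did not overlap the VEH-HC mice, and the other 3 trained conditions did. Kdm3a rose by a ratio of 1.18 in VEH-T3 (log2 difference 0.21 ± 0.05, SE, adjusted p = 0.0238). The call held with the length and GC trend removed (0.20, adjusted p = 0.0243) and was lost without VEH-HC mouse 4 (0.18, adjusted p = 0.0708), without VEH-T3 mouse 2 or mouse 3, and in the 12-library fit (adjusted p = 0.106). The remaining 6, Kdm3b, Kdm4a, Kdm4b, Kdm4c, Phf2 and Phf8, were not called. Kdm4b, a demethylase of trimethylated H3K9, came closest in Y397D-T3, where the log2 difference was 0.16 (adjusted p = 0.0589) and passed the threshold with the length and GC trend removed (0.20, adjusted p = 0.0275).

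Of the 8 enzymes classed as H3K4 methylases, 3 rose in VEH-T3 and 3 in Y397D-T3, where 2.23% and 3.91% of all genes rose. Kmt2a (MLL1) trimethylates H3K4 at promoters, and Kmt2c and Kmt2d (MLL3 and MLL4) monomethylate it at enhancers. Kmt2a values were 4.89, 7.66 and 8.69 FPKM (lowest, median, highest) for VEH-HC, 8.03, 8.27 and 8.53 for VEH-T10, 8.18, 8.84 and 9.97 for Y397F-T10, 7.26, 9.96 and 11.1 for VEH-T3, and 7.44, 9.82 and 10.6 for Y397D-T3. In both VEH-T3 and Y397D-T3, 5 of 6 mice exceeded the highest VEH-HC mouse and 1 lay within the VEH-HC range, whereas all VEH-T10 mice lay within it. Kmt2a rose by a log2 difference of 0.35 ± 0.09 in both (SE, adjusted p = 0.0305 and 0.0237). Kmt2c ran from 3.16 to 4.71 FPKM for VEH-HC (median 4.31), 4.21 to 4.63 for VEH-T10 (4.46), 4.31 to 5.40 for Y397F-T10 (4.79), 4.27 to 6.23 for VEH-T3 (5.47) and 4.16 to 5.64 for Y397D-T3 (5.29), with 5 of 6 mice above the VEH-HC range in each of the last 2 conditions. It rose by 0.30 ± 0.07 in VEH-T3 (adjusted p = 0.0214) and 0.24 ± 0.07 in Y397D-T3 (adjusted p = 0.0466). With the trend on transcript length and GC content removed, the VEH-T3 calls of Kmt2a and Kmt2c were lost (0.19 and 0.14, adjusted p = 0.0680 and 0.139).

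Kmt2d ran from 4.34 to 6.32 FPKM for VEH-HC (median 5.59), 5.55 to 7.01 for VEH-T10 (5.86), 5.44 to 8.39 for Y397F-T10 (6.50), 5.90 to 9.97 for VEH-T3 (7.48) and 4.92 to 8.76 for Y397D-T3 (7.48), so every condition overlapped VEH-HC. It rose by 0.40 ± 0.11 in VEH-T3 (adjusted p = 0.0421), and the difference in Y397D-T3 was 0.33 (95% interval 0.10 to 0.57, adjusted p = 0.0719). Setd7 ran from 22.5 to 28.0 FPKM for VEH-HC (median 25.8), 26.6 to 30.5 for VEH-T10 (27.6), 26.5 to 30.3 for Y397F-T10 (28.2), 25.8 to 29.9 for VEH-T3 (28.3) and 26.8 to 30.4 for Y397D-T3 (29.1). Its difference was the smallest of the 16 called, 0.16 ± 0.05 in Y397D-T3 (adjusted p = 0.0420), with 4 of 6 mice above the VEH-HC range. Kmt2b, Kmt2e, Setd1a and Setd1b, which share COMPASS-type partners or a SET domain with these enzymes, were not called.

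The H3K36 methylases Nsd1, which writes dimethylation between genes and over gene bodies, and Ash1l rose in VEH-T3, and Ash1l also in Y397D-T3, while Setd2, the H3K36 trimethylase, was not called. Nsd1 values were 8.26, 9.97 and 10.2 FPKM for VEH-HC (lowest, median, highest), 9.498, 9.81 and 10.2 for VEH-T10, 10.1, 10.4 and 11.5 for Y397F-T10, 10.2, 11.4 and 12.1 for VEH-T3, and 9.53, 10.9 and 11.9 for Y397D-T3. All 6 VEH-T3 mice exceeded the highest VEH-HC mouse (10.24 against 10.23 FPKM at the boundary), and the difference was 0.20 ± 0.05 (SE, adjusted p = 0.0219). In Y397D-T3 the Nsd1 difference was 0.14 (95% interval 0.04 to 0.24, adjusted p = 0.0805), not past the threshold. Ash1l values were 8.56, 11.9 and 12.7 FPKM for VEH-HC, 11.6, 12.1 and 13.1 for VEH-T10, 12.4, 12.97 and 13.7 for Y397F-T10, 11.5, 13.8 and 14.5 for VEH-T3, and 11.9, 13.6 and 14.1 for Y397D-T3. In VEH-T3 and in Y397D-T3, 5 of 6 mice lay above the VEH-HC range, and the differences were 0.22 ± 0.06 (adjusted p = 0.0465) and 0.21 ± 0.06 (adjusted p = 0.0418).

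Kmt2a, Kmt2c, Kmt2d, Nsd1 and Ash1l share a property that the list did not use. Together with Kdm5a they are the 6 enzymes whose longest coding transcript reaches 10000 nt, from 10944 nt in Kdm5a to 19823 nt in Kmt2d. In VEH-T3, 5 of these 6 and 3 of the other 33 rose, and among all genes with transcripts of that length 16.2% rose, beside 1.89% of shorter genes. Kdm7a, counted with the other 33, is the next in length at 9566 nt, just under the limit. In Y397D-T3 3 of the 6 rose, beside 16.5% of all long genes and 3.59% of the shorter. Across the 39 enzymes the log2 difference followed transcript length with a Spearman correlation of 0.74 in VEH-T3, 0.72 in Y397D-T3, 0.63 in Y397F-T10 and 0.37 in VEH-T10, beside 0.33, 0.20, 0.34 and 0.10 across the 12686 annotated genes, all of which share the same libraries. VEH-HC mouse 4 had the lowest VEH-HC value for all 6 long enzymes, such as 4.89 FPKM against 7.33 to 8.69 in the other 5 mice for Kmt2a.

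With a spline trend of each library on transcript length and GC content removed, the Spearman correlations fell to 0.32, 0.27, 0.13 and 0.15. The enzymes that rose then numbered 1 in VEH-T10 (Kdm7a), 3 in VEH-T3 (Kdm7a, Dot1l and Kdm3a), 1 in Y397F-T10 (Kdm7a) and 5 in Y397D-T3 (Kdm7a, Dot1l, Kmt2a, Ash1l and Kdm4b), against 0.875%, 1.4%, 0.504% and 6.97% of all genes in that fit. In VEH-T3 the differences of the 5 long enzymes became 0.19 for Kmt2a (adjusted p = 0.0680), 0.14 for Kmt2c (0.139), 0.24 for Kmt2d (0.165), 0.05 for Nsd1 (0.521) and 0.08 for Ash1l (0.210). In Y397D-T3 Kmt2a kept its call at 0.20 (adjusted p = 0.0203) and Ash1l at 0.12 (adjusted p = 0.0184), while Kmt2c did not at 0.10 (adjusted p = 0.182), nor did Setd7 at 0.13 (adjusted p = 0.0565). Without VEH-HC mouse 4, and with FPKM as deposited, Kdm7a and Dot1l were the enzymes that rose in VEH-T3 (0.52 and 0.34, adjusted p = 0.00447 and 0.0373) and in Y397D-T3 (0.42 and 0.41, adjusted p = 0.00449 and 0.00581). In VEH-T3 the differences without that mouse were 0.25 for Kmt2a (adjusted p = 0.0827), 0.24 for Kmt2c (0.0625), 0.34 for Kmt2d (0.116), 0.16 for Nsd1 (0.0641) and 0.14 for Ash1l (0.117). In Y397D-T3 they were 0.25 for Kmt2a (adjusted p = 0.0576), 0.18 for Kmt2c (0.118), 0.12 for Setd7 (0.107) and 0.14 for Ash1l (0.0925). The same 2 calls remained without VEH-T3 mouse 2 or mouse 3, and without Y397D-T3 mouse 2 or mouse 5. The part of library differences in long transcripts in these results was not tested beyond these fits.

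**Figure D4:**
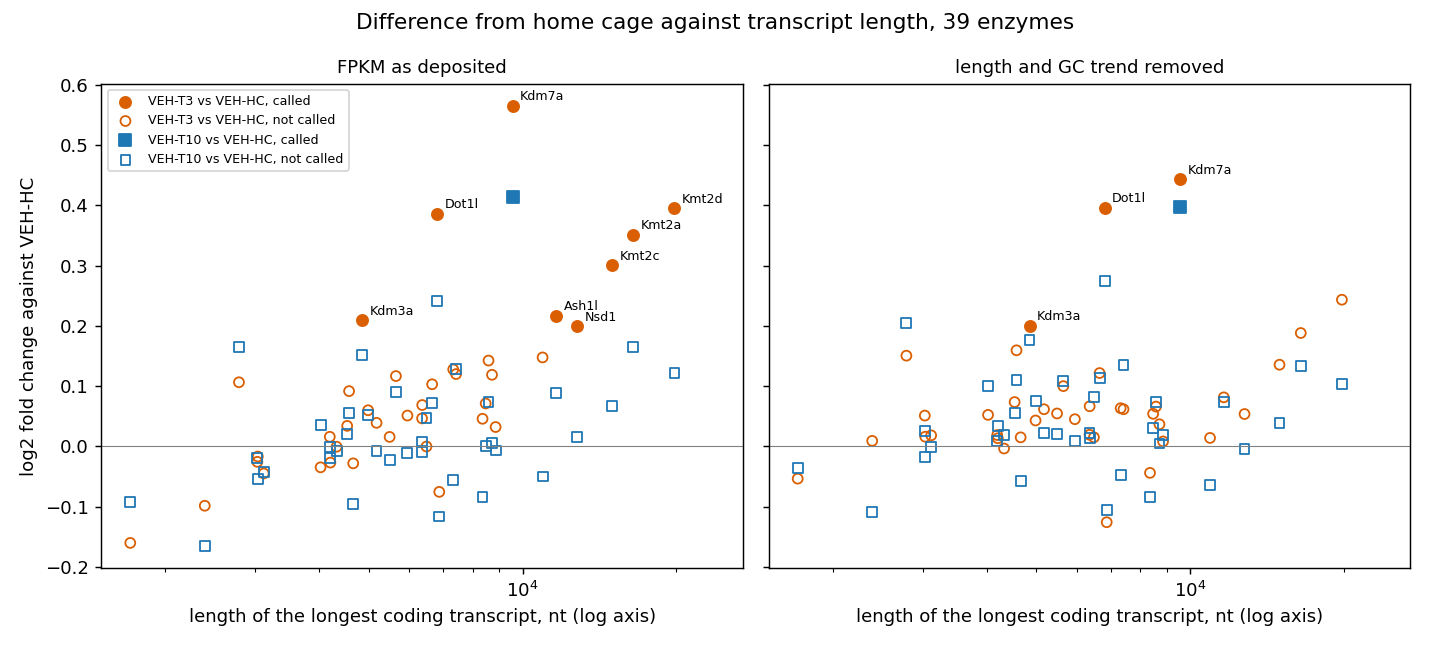
Log2 fold change against VEH-HC plotted against the length of the longest coding transcript (nt, log axis) for the 39 enzymes in VEH-T3 (orange circles) and VEH-T10 (blue squares), filled where adjusted p was under 0.05, with FPKM as deposited on the left and the length and GC trend removed on the right. On the left the VEH-T3 points climb with length (Spearman correlation 0.74), and on the right Kdm7a, Dot1l and Kdm3a stay filled.

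**Figure D5:**
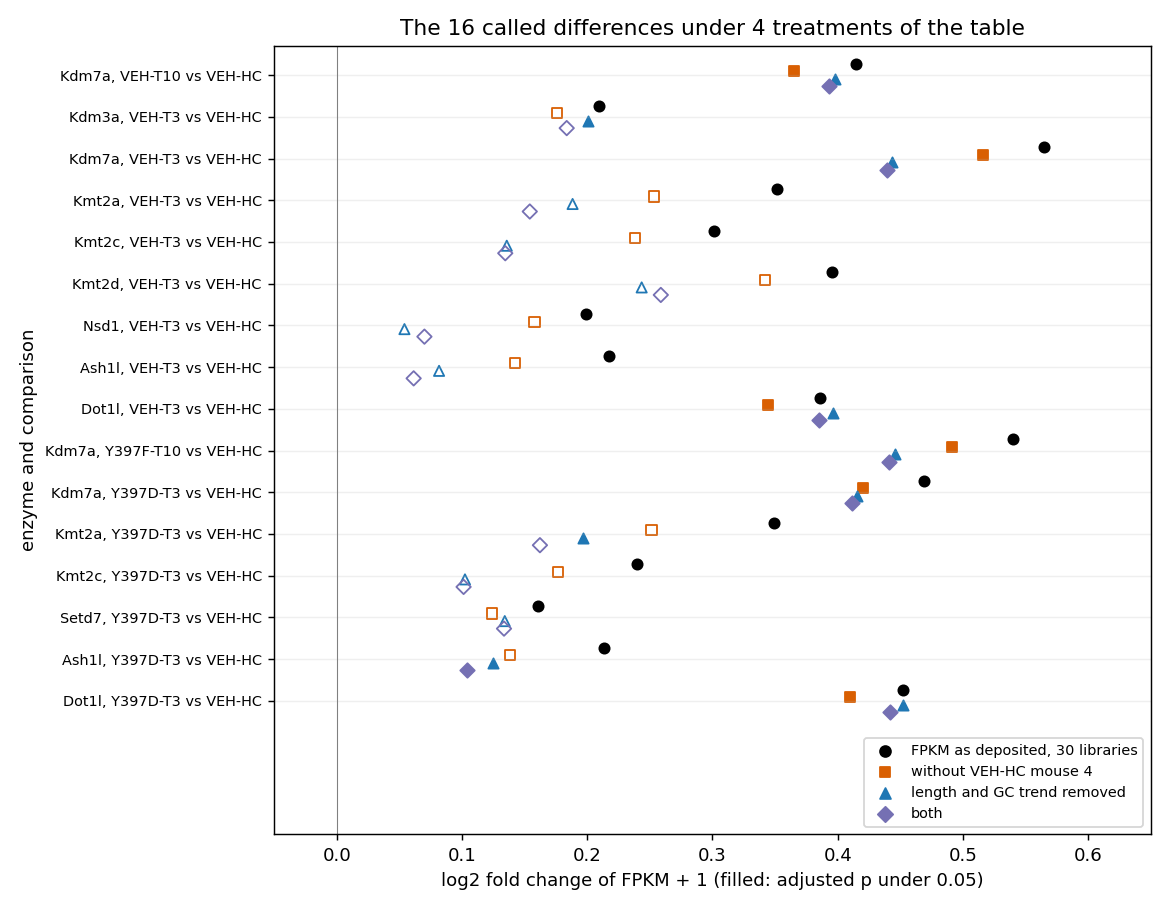
Log2 fold change of the 16 called differences with FPKM as deposited, without VEH-HC mouse 4, with the length and GC trend removed, and with both. Filled symbols have adjusted p under 0.05: all 4 symbols are filled for Kdm7a in 4 comparisons and for Dot1l in 2, and the values of the long enzymes move toward 0.

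The H3K9 methylases gave no call. Ehmt2 ran from 54.1 to 58.6 FPKM for VEH-HC (median 56.8), 55.6 to 61.7 for VEH-T10 (57.9), 52.1 to 60.5 for Y397F-T10 (56.3), 51.8 to 57.5 for VEH-T3 (55.5) and 56.4 to 59.9 for Y397D-T3 (57.6), with overlap in every comparison. Its log2 difference from VEH-HC lay between -0.03 and 0.04, and the 95% intervals lay within -0.11 and 0.11. Ehmt1 (GLP), its partner, ran from 5.92 to 7.24 FPKM for VEH-HC (median 6.90), 6.18 to 7.49 for VEH-T10 (6.71), 6.22 to 7.52 for Y397F-T10 (6.86), 6.38 to 7.71 for VEH-T3 (7.15) and 6.62 to 7.40 for Y397D-T3 (7.19). Its differences from VEH-HC ran from -0.01 to 0.06 and all conditions overlapped. Setdb1, Setdb2, Suv39h1 and Suv39h2 had differences between -0.10 and 0.12 from VEH-HC.

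Of the enzymes classed here under H3K27, neither the eraser Kdm6b nor the writers Ezh1 and Ezh2 passed the threshold in the fit without library weights. Kdm7a, which also acts on H3K27, was classed with the H3K9 demethylases. Kdm6b (JMJD3), an inducible demethylase of H3K27 trimethylation, ran from 6.20 to 7.75 FPKM for VEH-HC (median 7.23), 6.93 to 8.11 for VEH-T10 (7.51), 5.84 to 7.97 for Y397F-T10 (7.52), 7.20 to 7.95 for VEH-T3 (7.75) and 6.78 to 9.16 for Y397D-T3 (7.84). All conditions overlapped, and the difference nearest to the threshold was 0.12 in Y397D-T3 (95% interval -0.01 to 0.26, adjusted p = 0.249). A test with library weights called Kdm6b higher in Y397D-T3 (0.15, adjusted p = 0.0449). That test called 1209 genes higher in this comparison, beside 515 without weights. Ezh2 varied more between mice than between conditions, from 0.982 to 1.97 FPKM for VEH-HC (median 1.76), 1.52 to 2.63 for VEH-T10 (1.89), 1.01 to 2.77 for Y397F-T10 (1.88), 1.19 to 2.15 for VEH-T3 (1.99) and 1.17 to 2.12 for Y397D-T3 (1.78). Its interval was wide, -0.12 to 0.44 in VEH-T10, and the level is close to 1 FPKM, where the added 1 draws differences toward 0. Ezh1 differed from VEH-HC by -0.03 to 0.05.

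Kdm1a, the LSD1 subunit of the CoREST complex that removes H3K4 mono- and dimethylation, ran from 21.03 to 23.4 FPKM for VEH-HC (median 22.2), 19.99 to 23.5 for VEH-T10 (21.9), 19.1 to 22.2 for Y397F-T10 (21.1), 19.2 to 23.1 for VEH-T3 (22.1) and 20.3 to 23.7 for Y397D-T3 (23.1). All conditions overlapped, and the differences from VEH-HC ran from -0.08 to 0.02. Kdm1b, Kdm5a and Kdm5b, the other 3 erasers of H3K4 methylation, were not called, nor were the H3K36 demethylases Kdm2a, Kdm2b and Kdm8. Smyd2, which methylates H3K36 and non-histone proteins, had the most negative difference in VEH-T3 and in Y397F-T10, -0.16 and -0.18 (adjusted p = 0.151 and 0.152), neither past the threshold. Its highest VEH-HC value, 36.8 FPKM, was that of mouse 4, and the highest trained mouse had 36.35 FPKM, within the VEH-HC range with mouse 4 and above the 35.02 FPKM of the other 5. A test with library weights called Smyd2 lower in both (adjusted p = 0.0402 and 0.0242). That test called 1606 and 1094 genes lower in these comparisons, beside 387 and 87 without weights. Smyd2 has the shortest transcript of the 39 (1708 nt), and with the length and GC trend removed its differences were -0.05 and -0.09 (adjusted p = 0.861 and 0.797).

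The effect of each CREST mutant was read against the vehicle condition with the same training. In Y397F-T10 against VEH-T10, 0 of 39 enzymes were called, beside 0.0% of all genes, and in Y397D-T3 against VEH-T3 0 of 39 were called, beside 0.00758%. At an unadjusted p under 0.05 limma gave 3 and 2 enzymes, beside 3.78% and 7.87% of all genes. The 3 were Kdm5a, Kdm5b and Nsd1, all with higher values in Y397F-T10, and the 2 were Kdm3a and Kdm1b, both with lower values in Y397D-T3 (log2 differences -0.14 and -0.16). With the length and GC trend removed, Kdm5a, Kdm5b and Nsd1 went from 0.16, 0.10 and 0.10 to 0.08, 0.04 and 0.02, and Kdm3a and Kdm1b to -0.10 and -0.11. Kdm5a, an eraser of H3K4 trimethylation, was the 1 enzyme whose mice did not overlap between Y397F-T10 and VEH-T10 (log2 difference 0.16, adjusted p = 0.9999), beside 0.258% of all genes, and in Y397D-T3 against VEH-T3 0 enzymes were of that kind, beside 0.228%. Kdm7a differed by 0.13 in Y397F-T10 against VEH-T10 (95% interval -0.04 to 0.29) and by -0.10 in Y397D-T3 against VEH-T3 (-0.26 to 0.07), and Dot1l by -0.06 (-0.22 to 0.11) and 0.07 (-0.10 to 0.23). The intervals leave room for a mutant effect of these sizes.

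The training periods were also set against each other directly, since 8 enzymes passed the threshold after 3 min and 1 after 10 min. In VEH-T10 against VEH-T3, 0 of 39 were called, beside 0.0455% of all genes, so a difference between the periods was not shown for any enzyme. The unadjusted p was under 0.05 for 8, beside 8.15% of all genes, 7 of them with lower values in VEH-T10 (Kdm5a, Kdm5b, Kmt2c, Kmt2d, Kmt2e, Setd2 and Nsd1) and 1 with a higher value (Ehmt2). Nsd1 came closest, with a log2 difference of -0.18 (95% interval -0.28 to -0.08, adjusted p = 0.279). It was the 1 enzyme whose mice did not overlap, beside 0.387% of all genes. At the boundary the highest VEH-T10 mouse had 10.23 FPKM and the lowest VEH-T3 mouse 10.24. With library weights Nsd1 and Kmt2c passed (adjusted p = 0.0345 and 0.0482). That test called 9 genes higher and 44 lower, beside 0 and 6 without weights. With the length and GC trend removed the median of the 6 long enzymes went from -0.19 to -0.07, and Nsd1 was at -0.06 (adjusted p = 0.908). Kdm7a and Dot1l were -0.15 and -0.15 (adjusted p = 0.647 and 0.663).

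Genes that work with these enzymes were counted in lists chosen by function, and the counts stand beside 2.23% of all genes that rose in VEH-T3 and 3.91% in Y397D-T3. Of 22 other lysine methylases and demethylases tested, 1 rose in VEH-T3 (Jmjd1c, a Jumonji protein, log2 difference 0.23, adjusted p = 0.0430) and 1 in Y397D-T3 (Prdm8, a PR-domain regulator of neurons, 0.33, adjusted p = 0.0196), and none was called in VEH-T10 or Y397F-T10. Of 14 COMPASS partners of the Kmt2 and Setd1 enzymes, Bod1l rose in VEH-T3 (0.21, adjusted p = 0.0314) and the core subunit Rbbp5 in Y397D-T3 (0.15, adjusted p = 0.0383). Of 8 PRC2 partners, Aebp2 rose in VEH-T3 (0.22, adjusted p = 0.0376). Of 9 LSD1 partners, Gse1 rose in VEH-T3 and Y397D-T3 (0.30 and 0.40, adjusted p = 0.0214 and 0.00228), and Zmym3 rose in Y397D-T3 (0.22, adjusted p = 0.0193). With the length and GC trend removed, the VEH-T3 calls of Jmjd1c (0.13, adjusted p = 0.241), Bod1l (0.09, 0.166) and Aebp2 (0.17, 0.0874) were lost, and those of Gse1, Prdm8, Rbbp5 and Zmym3 held. The list medians in VEH-T3 and Y397D-T3 lay between -0.01 and 0.10, beside -0.04 and -0.03 over all genes.

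Among proteins that read methylated lysines, Bptf and Chd1 rose in VEH-T3 (0.22 and 0.22, adjusted p = 0.0476 and 0.0451), and in Y397D-T3 the HP1 proteins parted, with Cbx1 higher (0.26, adjusted p = 0.0158) and Cbx3 lower (-0.23, adjusted p = 0.00358). With the length and GC trend removed, Cbx1 kept its call (0.36, adjusted p = 0.00299), while Bptf (0.10, 0.1799), Chd1 (0.14, 0.229) and Cbx3 (-0.15, 0.0511) did not. As a measure of the training response in the same libraries, 2, 4, 2 and 9 of 14 immediate-early genes rose in VEH-T10, VEH-T3, Y397F-T10 and Y397D-T3, and 1 fell in Y397F-T10 (Dusp1), beside 0.319%, 2.23%, 0.47% and 3.91% of all genes that rose. With the length and GC trend removed, 6, 6, 4 and 11 of the 14 rose and none fell, with Dusp1 in Y397F-T10 at -0.35 (adjusted p = 0.116). Homer1, a postsynaptic scaffold with an activity-induced short form, rose in all 4 (0.42, 0.45, 0.51 and 0.44, adjusted p = 0.00960, 0.00393, 0.00147 and 0.00159), differences of the same order as those of Kdm7a.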

How the data were processed

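Expression was measured by bulk RNA-seq in 30 libraries, 6 mice in each of 5 conditions, with groups taken from the sample titles. By the submitters' processing notes and the methods, the authors aligned reads to mm10 with TopHat2 2.1.1 and computed FPKM with Cufflinks 2.2.1, and the deposited FPKM values were used as they stand. All value columns of the table were used (0 left out). FPKM gives no read totals, so precision was taken from the spread among mice within conditions. For each gene that spread was pooled over the 5 conditions. The p-values therefore do not measure the spread of the compared conditions alone. For Kdm7a the SD was 0.378 FPKM in VEH-T10 and 1.72 in VEH-T3, while the SE was 0.08 in each comparison.

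Rows with a mean of at least 1 FPKM were transformed to log2(FPKM + 1) and fitted by limma 3.58.1 (R 4.3.3) with the 5 conditions over all 30 libraries, variances moderated toward a mean-dependent trend, and Benjamini-Hochberg adjustment over the tested rows of each comparison at 0.05. The study used a Cyber-T analysis of variance, which also moderates variances across genes. The added 1 draws fold changes of low genes toward 0. Fits and the depth estimate were tested on simulated data. In the alternative with length and GC content, a spline with 4 degrees of freedom for each property was fitted per library and removed. Transcript lengths, GC content and coordinates come from GENCODE vM21 (GRCm38), which matched 12686 tested rows and all 39 enzymes. Alternatives were a pseudocount of 0.1, no minimum (rows above 0 in at least 6 libraries), median centring, only the 12 libraries compared, the replicate number as a block, library weights, unadjusted p, summed rows of a symbol and each mouse left out. Figures used Python 3.11.15 and matplotlib 3.10.9.

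The enzymes, the lists and the tests were chosen with earlier results of these data known. All 39 enzymes could be named, values by mouse are given for those called and for Kdm6b, Ezh2, Kmt2a, Kmt2d, Ehmt1, Ehmt2 and Kdm1a, and list genes are named only when called. Kdm4b, Smyd2, Kdm5a, Kdm5b and Phf8 were singled out after their values had been seen. Sequencing ran on more than 1 platform, not assigned to libraries in the sources used here, so no batch could be modelled. Some results of the partner lists are not reported here, and the list of methyl-lysine readers is given without counts.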

Additional observations from a re-analysis of the deposited data

Results flagged for a closer look

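The gap of the lowest or highest mouse to its nearest neighbour was compared with the range of its condition for 14 enzymes in 5 conditions, 70 sets of 6 mice. In 8 sets 1 mouse stood apart, with that share above Dixon's 95% critical value, where chance flags about 1 in 20 independent sets. The enzymes share the same libraries, so these sets are not independent and that rate is no benchmark for them. In all 8 the mouse that stood apart was the lowest. VEH-HC mouse 4 was that mouse for Ash1l (8.56 FPKM against 11.3 to 12.7 in the other 5 mice), Ehmt1 (5.92 against 6.81 to 7.24), Kmt2a (4.89 against 7.33 to 8.69) and Nsd1 (8.26 against 9.65 to 10.2). The other 4 sets were Ezh2 in VEH-HC mouse 3 (0.982 against 1.70 to 1.97 FPKM), Ezh2 in VEH-T3 mouse 1 (1.19 against 1.93 to 2.15), Ehmt1 in Y397D-T3 mouse 2 (6.62 against 7.12 to 7.40) and Kmt2a in Y397D-T3 mouse 1 (7.44 against 9.64 to 10.6).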

How the results depend on the processing

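Kdm7a in VEH-T10, Y397F-T10 and Y397D-T3 and Dot1l in Y397D-T3 were called under all 8 alternatives chosen with the design, and over the 16 called differences 101 of 128 such values were called and 0 changed sign. Counts of called enzymes moved by more than 1.5 times as follows. In VEH-T3 against VEH-HC the count was 8, and it was 3 with the length and GC trend removed, 0 in the fit of 12 libraries and 15 at unadjusted p. In Y397D-T3 against VEH-HC it was 6, and it was 3 with no minimum of FPKM, 2 in the fit of 12 libraries, 11 with library weights and 10 at unadjusted p. In VEH-T10 and in Y397F-T10 against VEH-HC it was 1, and it was 3 and 3 with library weights and 6 and 11 at unadjusted p. Between mutant and vehicle it was 0, and at unadjusted p it was 3 for Y397F and 2 for Y397D. Between the training periods it was 0, with 8 at unadjusted p and 2 under library weights. Over all genes, library weights called 380 higher and 933 lower in VEH-T10 against VEH-HC, and 462 and 1094 in Y397F-T10. In VEH-T3 they called 854 and 1606, and in Y397D-T3 1209 and 1871. Between the training periods they called 9 and 44. In 2 fits chosen after seeing the data, the VEH-T3 count was 3 with the length and GC trend removed and libraries centred, and 2 with that trend removed and VEH-HC mouse 4 left out. Each fit of 12 libraries takes the spread from those libraries alone, and counts over all genes moved both ways. Against VEH-HC, the Y397D-T3 fit called 685 genes higher and 1160 lower, where all 30 libraries gave 515 and 417. For VEH-T10 the counts were 91 and 230 where they had been 42 and 66. The Y397F-T10 fit fell to 6 and 37 from 62 and 87, and the VEH-T3 fit to 0 from 294 and 387. The cause of these shifts, and of those in the enzyme counts, was not tested.

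With 1 mouse left out the count ran from 2 to 9 in VEH-T3 and from 2 to 9 in Y397D-T3, stayed at 1 in VEH-T10 and Y397F-T10 and at 0 in the other 3 comparisons. In VEH-T3 it was 2 without VEH-HC mouse 4 or VEH-T3 mouse 2 or 3, and 5 without VEH-T3 mouse 6 or VEH-HC mouse 2. In Y397D-T3 it was 2 without VEH-HC mouse 4 or Y397D-T3 mouse 2 or 5, and 3 without VEH-HC mouse 5 or Y397D-T3 mouse 6. The replicate block gave 1, 8, 1 and 6 calls against VEH-HC and 0 in the other 3. Replicate numbers name different mice. Deviations of same-numbered libraries from their condition means had correlations over 0.1 in at most 3 of 6 pairs. Single pairs ran from -0.50 to 0.52, and the mean was 0.21 in VEH-T10 against VEH-T3. Whether libraries of the same number share a batch was not tested. Low levels limit Suv39h2, Setdb2, Kdm8, Ezh2 and Kdm1b.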
